A study of Mus musculus with 6 samples.

Results

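The genes described here are 10 feedback and output genes of the Ras-MAPK pathway: the phosphatase genes Dusp4, Dusp5 and Dusp6, the Sprouty genes Spry1, Spry2 and Spry4, the Spred genes Spred1 and Spred2, and the transcription factor genes Etv4 and Etv5. They were chosen by name, with earlier results of these data known. All 10 were measured among 18193 genes on an Affymetrix 3' array. Each gene was read from the probe set, among those annotated to that gene alone, with the highest mean over the 6 arrays. The arrays held RNA of cells from digested skin tumours of 3 E-FABP deficient (EKO) mice and 3 wild type (WT) mice. EKO mice lack the epidermal fatty acid binding protein, which Fabp5 encodes. Mice of both genotypes had received the carcinogen DMBA and the tumour promoter TPA over 5 months, so no array represents untreated skin. The labels state neither strain nor age, nor how the Fabp5 allele was made. The labels call the cells keratinocytes and the replicates biological, while the design text speaks of tumour cells.

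Growth factor receptors switch on Ras, and Ras drives the kinases RAF, MEK and ERK. ERK then induces its own brakes: DUSP phosphatases remove the activating phosphates from ERK, while Sprouty and Spred proteins act further up, between receptor, Ras and RAF. ETV4 and ETV5, ETS factors of the PEA3 group, are induced by the same signal and carry it to other genes, so transcripts of these families are widely read as a trace of ERK activity. In DMBA and TPA skin tumours the pathway has a particular place, because DMBA commonly leaves an activating mutation in Hras and TPA stimulates the pathway through protein kinase C.

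The 6 arrays had medians between 5.41 and 5.43 on the log2 scale, and their number limits the precision of every value. Fabp5 averaged 8.16 ± 0.166 in EKO and 14.85 ± 0.073 in WT tumours (log2, SD, n = 3 each), and all 6 arrays matched their labels by it. It was also the 1 gene of 18193 past an adjusted p of 0.05 in limma's moderated test, 0.0055% of those tested. Keratinocyte markers were bright in every array: Krt14 averaged 14.71 ± 0.026 in EKO and 14.75 ± 0.0776 in WT tumours, and the averages of Trp63 were 11.67 ± 0.182 in EKO and 11.59 ± 0.0411 in WT tumours. In bulk RNA of this kind, fewer cells of a type and less RNA per cell cannot be told apart.

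Across the 10 genes, 9 had a higher mean in EKO than in WT tumours, against 50% of all genes tested, and none passed the test (limma adjusted p from 0.662 for Spry2 to 0.982 for Spry4). By unadjusted p under 0.05 there was 1, Spry2, where 7.13% of all genes fell under that line in either direction. With 1 array left out this count ran from 0 to 4, with 4 without EKO replicate 2. It was 0 without EKO replicate 1, EKO replicate 3, WT replicate 2 or WT replicate 3. The 7.13% is for the fit with all 6 arrays, and the share of all genes in the smaller fits is not given. Without EKO replicate 2, 42 of all genes passed a limma adjusted p of 0.05, against 1 with all 6 arrays, so the 4 cannot be set against the 7.13%. The median log2 difference, EKO minus WT, was 0.21 over the 10 genes and 0.00014 over all genes tested. Spry2 alone had every EKO value above every WT value, and for none were all EKO values below the WT values, while such separation was seen upward for 5.78% and downward for 6.19% of all genes. EKO replicate 1 held the highest value of the 6 arrays for 5 of the 10 genes, Dusp6, Etv5, Spry2, Spred1 and Spred2, and for 19.0% of all genes. Without that array 7 of the 10 had a higher EKO mean, where 49.4% of all genes did, and their median difference was 0.15. Without EKO replicate 2 it was 0.32 and all 10 had a higher EKO mean, against 51.2% of all genes.

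**Figure D1:**
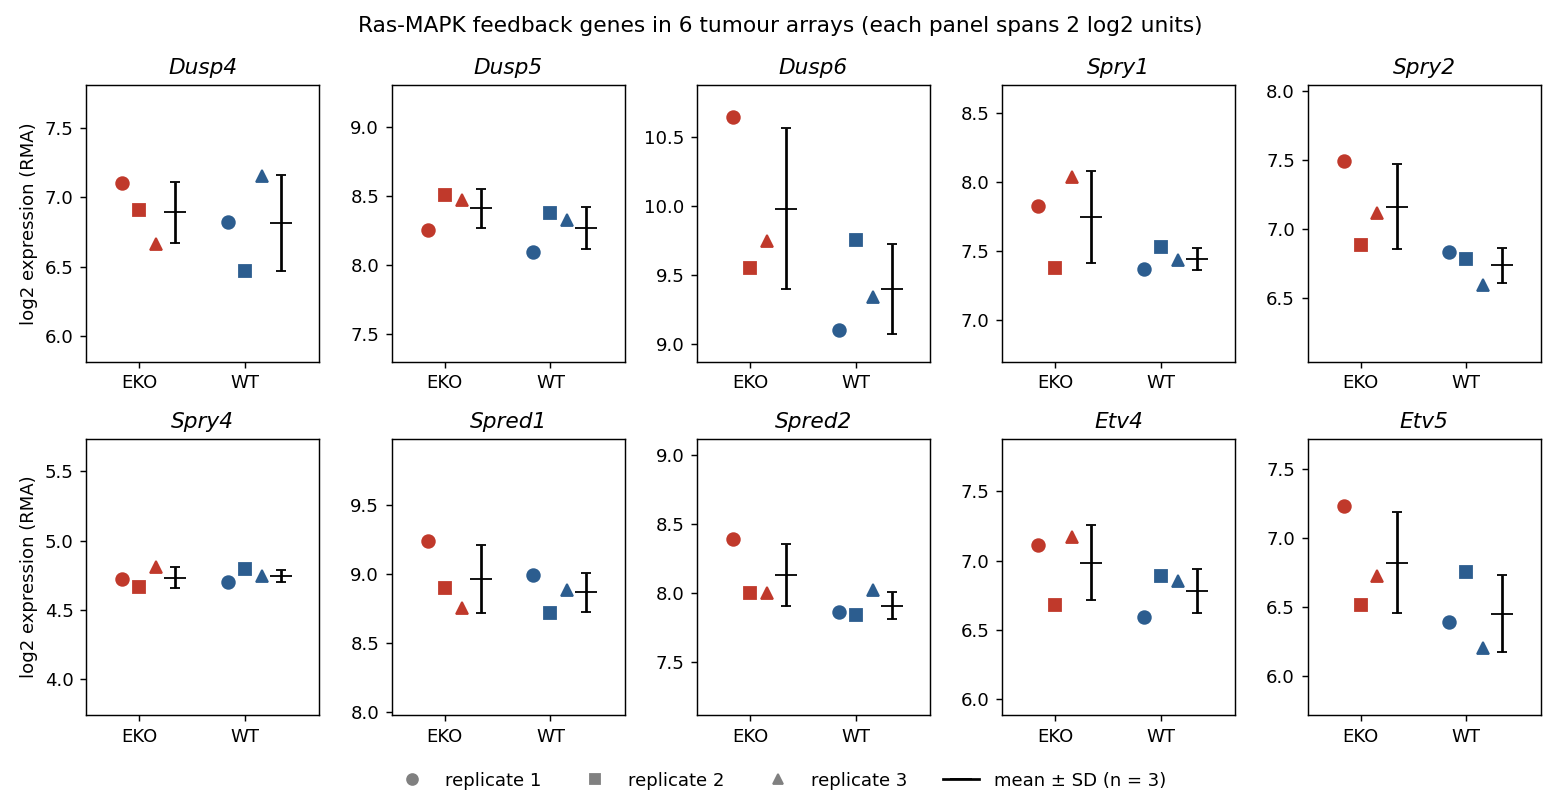
Log2 expression (vertical axis) of the 10 genes in the 3 EKO arrays (red) and the 3 WT arrays (blue), with marker shapes for replicates 1 to 3 and black bars for mean ± SD. Every panel spans the same height. EKO replicate 1 stands above the other arrays for Dusp6, Etv5, Spry2, Spred1 and Spred2, and the groups overlap for all genes except Spry2.

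The promoters of these 5 genes are shown because their transcripts had the same array on top. RefSeq promoter windows on GRCm38.p6, from 250 bases before to 50 bases after an annotated start, were matched by symbol for 7 of the 10 genes, and Etv5 had 2 such starts. Capitals mark the ETS hexamer CGGAAG or its reverse complement CTTCCG, a core bound by many ETS factors. All sequences run 5' to 3' on the strand of the gene.
Dusp6, chr10:99262981-99263280, plus strand: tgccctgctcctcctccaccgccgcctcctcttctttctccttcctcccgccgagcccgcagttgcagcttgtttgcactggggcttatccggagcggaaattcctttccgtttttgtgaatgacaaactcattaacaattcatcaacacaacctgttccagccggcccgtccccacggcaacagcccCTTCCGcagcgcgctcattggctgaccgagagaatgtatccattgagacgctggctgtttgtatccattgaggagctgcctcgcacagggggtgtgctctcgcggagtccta
Etv5 start site 1, chr16:22438319-22438618, minus strand: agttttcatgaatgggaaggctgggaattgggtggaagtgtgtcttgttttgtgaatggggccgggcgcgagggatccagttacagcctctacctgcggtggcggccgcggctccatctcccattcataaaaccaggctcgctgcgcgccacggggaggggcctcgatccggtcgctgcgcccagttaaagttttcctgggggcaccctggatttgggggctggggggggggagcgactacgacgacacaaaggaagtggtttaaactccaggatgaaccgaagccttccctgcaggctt
Etv5 start site 2, chr16:22439521-22439820, minus strand: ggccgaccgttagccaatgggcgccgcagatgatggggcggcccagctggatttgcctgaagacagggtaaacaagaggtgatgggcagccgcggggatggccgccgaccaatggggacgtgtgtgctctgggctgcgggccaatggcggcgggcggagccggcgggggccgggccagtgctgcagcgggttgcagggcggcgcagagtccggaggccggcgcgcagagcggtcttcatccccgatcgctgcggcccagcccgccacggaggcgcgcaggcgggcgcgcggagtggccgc
Spry2, chr14:105896770-105897069, minus strand: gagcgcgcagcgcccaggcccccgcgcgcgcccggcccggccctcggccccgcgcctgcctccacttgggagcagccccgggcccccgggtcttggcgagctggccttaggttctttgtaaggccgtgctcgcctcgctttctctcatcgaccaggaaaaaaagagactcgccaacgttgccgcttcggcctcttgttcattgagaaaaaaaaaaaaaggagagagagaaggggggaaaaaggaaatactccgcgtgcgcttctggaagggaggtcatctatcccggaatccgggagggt
Spred1, chr2:117120821-117121120, plus strand: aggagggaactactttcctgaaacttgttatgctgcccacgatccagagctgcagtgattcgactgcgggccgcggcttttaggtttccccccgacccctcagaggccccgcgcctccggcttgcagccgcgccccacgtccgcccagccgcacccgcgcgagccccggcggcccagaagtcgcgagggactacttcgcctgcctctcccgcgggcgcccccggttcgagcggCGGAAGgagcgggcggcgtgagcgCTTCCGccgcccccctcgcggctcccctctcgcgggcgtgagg
Spred2, chr11:19924192-19924491, plus strand: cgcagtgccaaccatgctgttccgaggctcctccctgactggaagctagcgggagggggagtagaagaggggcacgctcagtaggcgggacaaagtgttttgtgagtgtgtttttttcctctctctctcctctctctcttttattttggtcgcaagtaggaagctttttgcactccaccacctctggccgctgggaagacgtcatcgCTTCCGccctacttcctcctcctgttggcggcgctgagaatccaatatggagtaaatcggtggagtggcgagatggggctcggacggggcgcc

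Dusp5 and Spry1 were matched too but are not shown, and Dusp4, Etv4 and Spry4 were not matched. The hexamer stood in 3 of the 8 windows of the 7 matched genes, those of Dusp6, Spred1 and Spred2. It stood in 16.9% of all 32851 promoter windows of the same length, searched on both strands. In Dusp6 it began 62 bases and in Spred2 43 bases before the start. Spred1 held it 17 bases before the start and again 7 bases after it, in opposite orientations. The longer form CCGGAAG, which contains the hexamer, was found in none of the 8 windows of these genes and in 8.86% of all windows. The AP-1 motif TGANTCA was not found in the 8 windows and stood in 7.81% of all, and the CRE motif TGACGTCA was not found in them either and stood in 1.79%. The CArG box, bound by serum response factor, was matched in Dusp5 and in 1.63% of all windows. The windows of these genes held from 57% to 74% G and C, where the median window held 52.7%. A match describes the letters of the window, and no binding was measured.

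Among the phosphatases, Dusp6 had the largest difference and Dusp4 the smallest. Dusp6, a cytoplasmic phosphatase with a strong preference for ERK, read 10.64, 9.55 and 9.75 on the log2 scale in EKO replicates 1, 2 and 3, against 9.11, 9.75 and 9.34 in WT replicates 1, 2 and 3. Only EKO replicate 1 lay above the WT range, and WT replicate 2 lay at the level of EKO replicate 3. The log2 difference was 0.58 (SE 0.298, 95% interval -0.12 to 1.28), or 1.5-fold, and did not pass (limma adjusted p = 0.737). Without EKO replicate 1 the difference of Dusp6 was 0.25.

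Dusp5, a nuclear phosphatase that acts on ERK and holds it in the nucleus, read 8.25, 8.51 and 8.47 in EKO replicates 1, 2 and 3 and 8.09, 8.38 and 8.32 in WT replicates 1, 2 and 3. Here EKO replicate 1 was the lowest EKO array, the reverse of its place for Dusp6. The difference was 0.14, with an interval of -0.13 to 0.42 (limma adjusted p = 0.826). Without WT replicate 1, the lowest of all arrays, it was 0.06. Dusp4, a nuclear phosphatase of ERK, JNK and p38, read 7.10, 6.91 and 6.66 in EKO replicates 1, 2 and 3 and 6.82, 6.47 and 7.16 in WT replicates 1, 2 and 3. The highest and the lowest value of Dusp4 both belonged to WT tumours, and its difference was 0.08 with an interval of -0.38 to 0.53. Its direction turned when WT replicate 2 was left out (-0.10) and when EKO replicate 1 was (-0.03).

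The 3 Sprouty genes had differences from -0.01 to 0.42. Spry2, which restrains receptor tyrosine kinase signalling to Ras and ERK, read 7.49, 6.88 and 7.11 in EKO replicates 1, 2 and 3, against 6.83, 6.79 and 6.59 in WT replicates 1, 2 and 3. The groups did not overlap, and the gap between the lowest EKO and the highest WT value was 0.05. Its log2 difference of 0.42 (SE 0.161, interval 0.04 to 0.80), or 1.34-fold, was the 1 among the 10 whose interval lay above 0, at an unadjusted p of 0.0334 and a limma adjusted p of 0.662 over all genes. Without EKO replicate 1 the difference of Spry2 was 0.26 and its unadjusted p 0.0838. That p was also over 0.05 without EKO replicate 3 (0.0609), WT replicate 2 (0.06) or WT replicate 3 (0.0965), so the interval then included 0. A dimmer Spry2 probe set, 1421656_at, also had no overlap, with 5.53, 5.66 and 5.55 in EKO replicates 1, 2 and 3 and 5.52, 5.40 and 5.47 in WT replicates 1, 2 and 3, a difference of 0.12. On that probe set EKO replicate 2 was the highest array and not EKO replicate 1.

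Spry1, a relative of Spry2 with a like inhibitory role, read 7.82, 7.38 and 8.03 in EKO replicates 1, 2 and 3 and 7.37, 7.53 and 7.44 in WT replicates 1, 2 and 3. Both EKO replicates 1 and 3 lay above all WT arrays, and EKO replicate 2 lay among them. The spread was wider in EKO tumours (SD 0.333) than in WT tumours (SD 0.0806), and the difference of 0.30 did not pass (limma adjusted p = 0.756). Without EKO replicate 3 it was 0.16, and without EKO replicate 2 it was 0.48, with an adjusted p of 0.26.

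Spry4, the remaining Sprouty, gave 4 probe sets with different pictures, all dim. The one chosen by its mean, 1440867_at, read 4.72, 4.66 and 4.81 in EKO replicates 1, 2 and 3 and 4.70, 4.79 and 4.74 in WT replicates 1, 2 and 3, with a difference of -0.01 (interval -0.21 to 0.18). These values lay below the array medians, where RMA narrows differences, and the data carry no detection calls. Probe set 1445669_at read 4.62, 4.01 and 4.17 in EKO replicates 1, 2 and 3, against 3.57, 3.72 and 3.63 in WT replicates 1, 2 and 3. Its groups did not overlap and its difference of 0.62 was the largest of any probe set of the 10 genes, yet it did not pass over all probe sets (limma adjusted p = 0.592). Its WT values lay under the lower quartile of their arrays (3.91 to 3.95). The remaining Spry4 probe sets differed by -0.10 and 0.05, so the direction for Spry4 depended on the probe set.

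Spred1 and Spred2 inhibit the step from Ras to RAF, and Spred1 is known to bring neurofibromin, the Ras inhibitor encoded by Nf1, to the membrane. Spred2 read 8.392, 8.004 and 8.002 in EKO replicates 1, 2 and 3 and 7.86, 7.84 and 8.02 in WT replicates 1, 2 and 3. EKO replicate 1 stood apart, and the other EKO arrays lay just under WT replicate 3. The difference of Spred2 was 0.22 (interval -0.08 to 0.53, limma adjusted p = 0.762) and 0.09 without EKO replicate 1.

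Spred2 was read more evenly by a dimmer probe set. On 1436892_at it had 6.42, 6.45 and 6.37 in EKO replicates 1, 2 and 3 and 5.996, 6.07 and 6.16 in WT replicates 1, 2 and 3, a difference of 0.34 (unadjusted p = 0.00518, limma adjusted p = 0.592). All 3 EKO arrays lay close together there and above all WT arrays, with none standing apart. Another Spred2 probe set, 1441802_at, did not overlap either (difference 0.12), 1441415_at differed by 0.10 with overlap, and 1423001_at ran the other way at -0.14.

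Spred1 read 9.24, 8.90 and 8.76 in EKO replicates 1, 2 and 3 and 8.996, 8.72 and 8.88 in WT replicates 1, 2 and 3. Its groups overlapped throughout, with a difference of 0.10 (interval -0.24 to 0.43), which was -0.04 without EKO replicate 1. Of its 8 probe sets, 1460116_s_at had no overlap, with 6.54, 6.12 and 5.98 in EKO replicates 1, 2 and 3 and 5.95, 5.85 and 5.70 in WT replicates 1, 2 and 3 (difference 0.38, limma adjusted p = 0.655). A very dim one, 1445228_at, did not overlap either, at 0.12, and the remaining 5 differed by between -0.06 and 0.05.

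The ETV transcription factor genes had differences between those of the phosphatases Dusp5 and Dusp6. Etv5 read 7.23, 6.51 and 6.72 in EKO replicates 1, 2 and 3 and 6.40, 6.76 and 6.21 in WT replicates 1, 2 and 3. As for Dusp6, EKO replicate 1 lay above all other arrays, while WT replicate 2 lay above the other EKO arrays. The difference of Etv5 was 0.37 (SE 0.213, interval -0.13 to 0.87, limma adjusted p = 0.761) and 0.17 without EKO replicate 1. Its 2 dimmer probe sets differed by 0.07 and -0.05.

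Etv4, the PEA3 factor itself, read 7.11, 6.68 and 7.17 in EKO replicates 1, 2 and 3 and 6.59, 6.89 and 6.85 in WT replicates 1, 2 and 3. EKO replicates 1 and 3 lay above all WT arrays and EKO replicate 2 lay near the bottom. The difference was 0.21 (interval -0.16 to 0.57, limma adjusted p = 0.817), with 0.11 when WT replicate 1 was left out and 0.36 when EKO replicate 2 was. The second Etv4 probe set, 1443381_at, differed by 0.15 with overlap.

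Over all 28 probe sets of the 10 genes, 22 had a higher EKO mean, against 48.7% of 34945 probe sets with 1 gene symbol. Every EKO value lay above every WT value for 7 of the 28, against 5.5% of all these probe sets, and below it for 0, against 6.83%. The 7 belonged to 4 genes, Spry2, Spry4, Spred1 and Spred2. Probe sets of a gene share its transcripts and are not separate observations, and none of the 28 passed (smallest limma adjusted p = 0.592), where 0.00572% of the 34945 probe sets did.

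**Figure D2:**
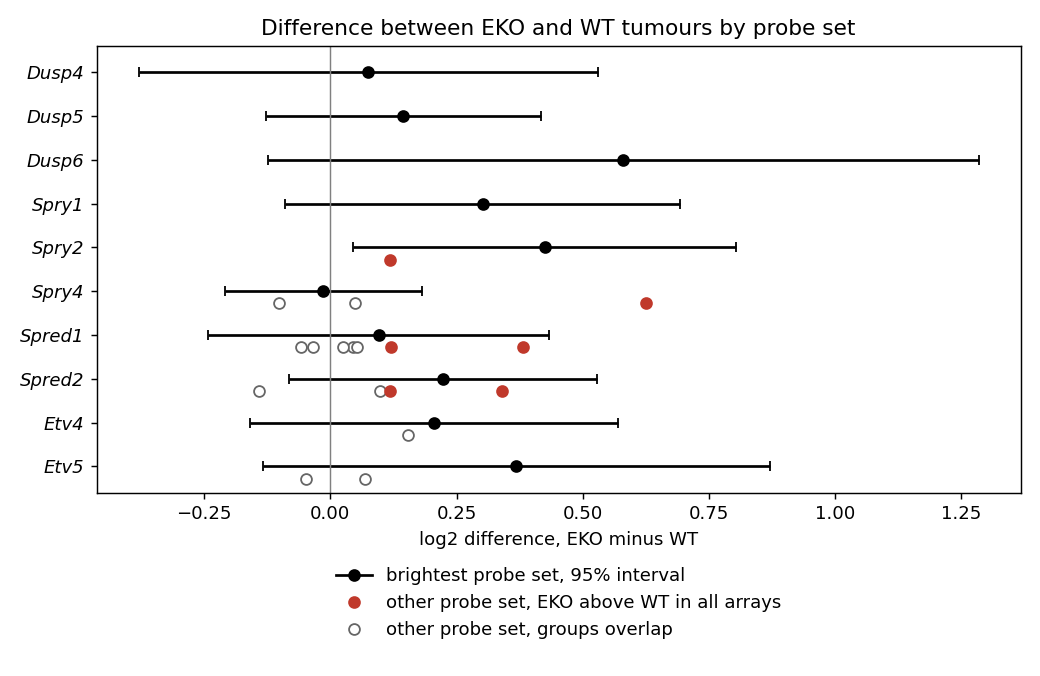
Log2 difference, EKO minus WT (horizontal axis), for each gene. Black points with 95% intervals are the probe set with the highest mean, and the smaller points under them are the gene's other probe sets, red where all EKO arrays lay above all WT arrays and open where the groups overlapped. Only the interval of Spry2 lies above 0, and the probe sets of Spry4 run from -0.10 to 0.62.

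Of 45 pairs of genes, 35 had a correlation above 0, and 5 had a Pearson r over 0.8. The shares for pairs of all genes are not given, so neither count shows that these genes vary together more than others. The pairs share genes and arrays and are not separate observations, and each r includes any difference between the genotype means. Dusp6 and Etv5 followed each other closely (r = 0.943, exact permutation p = 0.00972, adjusted over the 45 pairs 0.219; Spearman rho = 0.943, exact permutation p = 0.0167, adjusted 0.375). Without EKO replicate 1 and WT replicate 1, the arrays farthest from the median of Dusp6, r was 0.998. Their deviations from the group means correlated with r = 0.914 over the same 6 arrays.

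Spry1 and Etv4 ranked the 6 arrays in the same order, EKO replicate 3 first and WT replicate 1 last (rho = 1, exact permutation p = 0.00278, adjusted 0.125; Pearson r = 0.937, exact permutation p = 0.00139, adjusted 0.0625). Leaving out EKO replicates 1 and 3 gave r = 0.90, and the deviations from the group means gave r = 0.922. The remaining pairs over 0.8 had a smaller r without EKO replicate 1 and a WT array. Spry2 and Etv5 had an r of 0.906 (exact permutation p = 0.0181, adjusted 0.271; rho = 0.657, exact permutation p = 0.175, adjusted 0.716), which was 0.316 without EKO replicate 1 and WT replicate 3. Dusp6 and Spry2 had an r of 0.864 (exact permutation p = 0.0361, adjusted 0.406; rho = 0.543, exact permutation p = 0.297, adjusted 0.889), and 0.739 without EKO replicate 1 and WT replicate 1. Dusp6 and Spred2 had an r of 0.832 (exact permutation p = 0.0806, adjusted 0.434; rho = 0.20, exact permutation p = 0.714, adjusted 0.892), which was -0.613 without those arrays. Dusp4, Dusp5, Spry4 and Spred1 had no r over 0.8 with any other gene of the 10. None of the 45 pairs passed after adjustment. With 6 arrays no pair alone could have passed, because Spry1 and Etv4 already had the smallest p-values that these permutations can give. The adjusted values therefore say nothing on whether any pair is related.

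**Figure D3:**
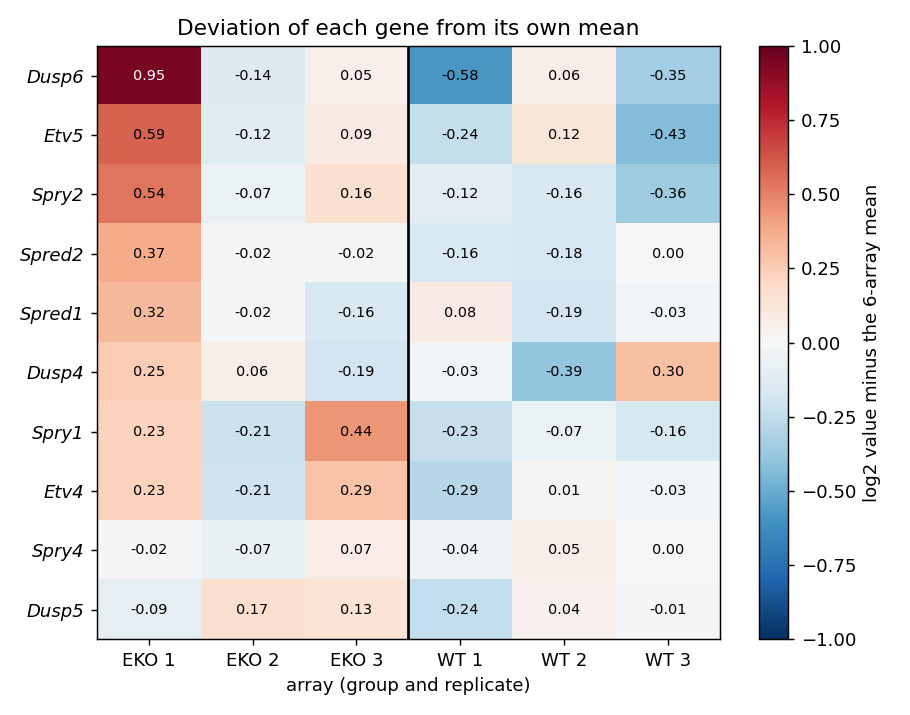
Log2 value of each gene minus its own mean over the 6 arrays (colour and printed number), with EKO arrays left of the black line and WT arrays right of it. Rows were arranged after the values were seen. EKO replicate 1 is high for the upper rows, EKO replicate 3 for Spry1 and Etv4, and Spry4 hardly varies.

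Outside the 10 genes, other members of the same families went both ways. Of 11 measured, 7 had a higher and 4 a lower EKO mean, with a median difference of 0.15, and 0 passed the test. Spred3, of the Spred family, read 5.30, 4.72 and 6.07 in EKO replicates 1, 2 and 3, against 4.81, 4.72 and 4.59 in WT replicates 1, 2 and 3 (difference 0.66, limma adjusted p = 0.709). EKO replicates 1 and 3 lay above all WT arrays. Dusp7, a cytoplasmic ERK phosphatase closely related to Dusp6, had no overlap, at 9.39, 9.32 and 9.54 in EKO replicates 1, 2 and 3 and 9.25, 9.28 and 9.13 in WT replicates 1, 2 and 3. Its difference was 0.20 (limma adjusted p = 0.717). Dusp8, a phosphatase of JNK and p38, differed by -0.21 and Dusp2, an inducible nuclear phosphatase, by 0.62, both with overlap. Dusp2 read 8.04, 7.94 and 7.49 in EKO replicates 1, 2 and 3 and 6.63, 6.73 and 8.23 in WT replicates 1, 2 and 3. Its highest value thus belonged to a WT array.

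The core of the cascade had a median near 0. Its 23 measured genes, from receptors and adaptors to RAF, MEK and Ras inhibitors, had a median difference of 0.01, with 13 higher and 10 lower EKO means and 0 past the test. Map2k1, which encodes MEK1, read 9.59, 9.60 and 9.55 in EKO replicates 1, 2 and 3 and 9.92, 9.83 and 9.62 in WT replicates 1, 2 and 3 (difference -0.21, limma adjusted p = 0.716). All EKO arrays lay below the WT arrays for this gene. The opposite separation was seen for Rasa1, which encodes a Ras GTPase-activating protein and was chosen after its values were seen, with a difference of 0.12 (limma adjusted p = 0.806). The scaffold gene Ksr1 differed by -0.31, Rras by -0.23 and Rras2, a relative of the Ras genes, by 0.44.

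Other genes induced by ERK had a median difference of 0.16, with 10 of 15 higher in EKO tumours by their means and 0 past the test. Ccnd1, which encodes cyclin D1, read 11.20, 10.17 and 10.86 in EKO replicates 1, 2 and 3, against 9.59, 9.59 and 10.12 in WT replicates 1, 2 and 3. All EKO arrays lay above the WT arrays, EKO replicate 2 by the least (difference 0.97, limma adjusted p = 0.621). Fosl1, an AP-1 factor, differed by 0.75, the ERK target Phlda1 by 0.26 and the immediate early gene Egr1 by -0.47, all with overlap. For Fosl1, WT replicate 2 (6.12) lay above EKO replicate 2 (5.87). Egr1 read 10.94, 12.03 and 11.21 in WT replicates 1, 2 and 3, so WT replicate 2 stood apart.

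Markers of other cells and of dissociation moved with some of these arrays. The 6 fibroblast markers had a mean log2 level between 11.16 and 11.86 in EKO and between 11.21 and 12.08 in WT tumours. Within EKO tumours replicate 1, the array highest for Dusp6, Etv5, Spry2, Spred1 and Spred2, was the highest for fibroblast markers. WT replicate 3, the highest of all for these markers, was low for Dusp6 and the lowest for Etv5 and Spry2. The same array was the highest of all for Dusp4 and the highest WT array for Spred2. Of these markers 1 had a higher and 5 a lower EKO mean. Dissociation stress markers, which include Fos, Egr1 and Atf3, had means between 8.97 and 9.32 in EKO and between 9.05 and 10.13 in WT tumours, with 1 of 9 higher by its EKO mean. They peaked in WT replicate 2 and were lowest in EKO replicate 1. Fos and Egr1 were also counted among the other genes induced by ERK. WT replicate 2 was the highest WT array for Dusp5, Dusp6, Spry1, Spry4, Etv4 and Etv5. It was the lowest of all arrays for Dusp4, Spred1 and Spred2. Macrophage markers had means between 7.44 and 8.13 in EKO and between 7.95 and 8.39 in WT tumours, with 1 of 7 higher by its EKO mean. The part of these markers in the values of the 10 genes was not tested.

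The mean deviation of the 10 genes from their own means was 0.34, -0.06 and 0.09 in EKO replicates 1, 2 and 3, and -0.18, -0.07 and -0.11 in WT replicates 1, 2 and 3. EKO replicate 2 lay level with WT replicate 2 on this scale, and EKO replicates 1 and 3 lay above all WT arrays. Among 1749 genes with a mean above the median of all genes and at least the median spread of these 10, those most like this pattern over the 6 arrays were Ctbp2 (Pearson r = 0.976), Spon1 (0.95), Mthfd2l (0.949), Tirap (0.942) and Stk26 (0.94). With 6 points 32 of the 1749 had an r over 0.9, so these 5 are given as a description. Ctbp2, a transcriptional co-repressor, read 9.99, 9.47 and 9.52 in EKO replicates 1, 2 and 3, against 9.13, 9.29 and 9.28 in WT replicates 1, 2 and 3.

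**Figure D4:**
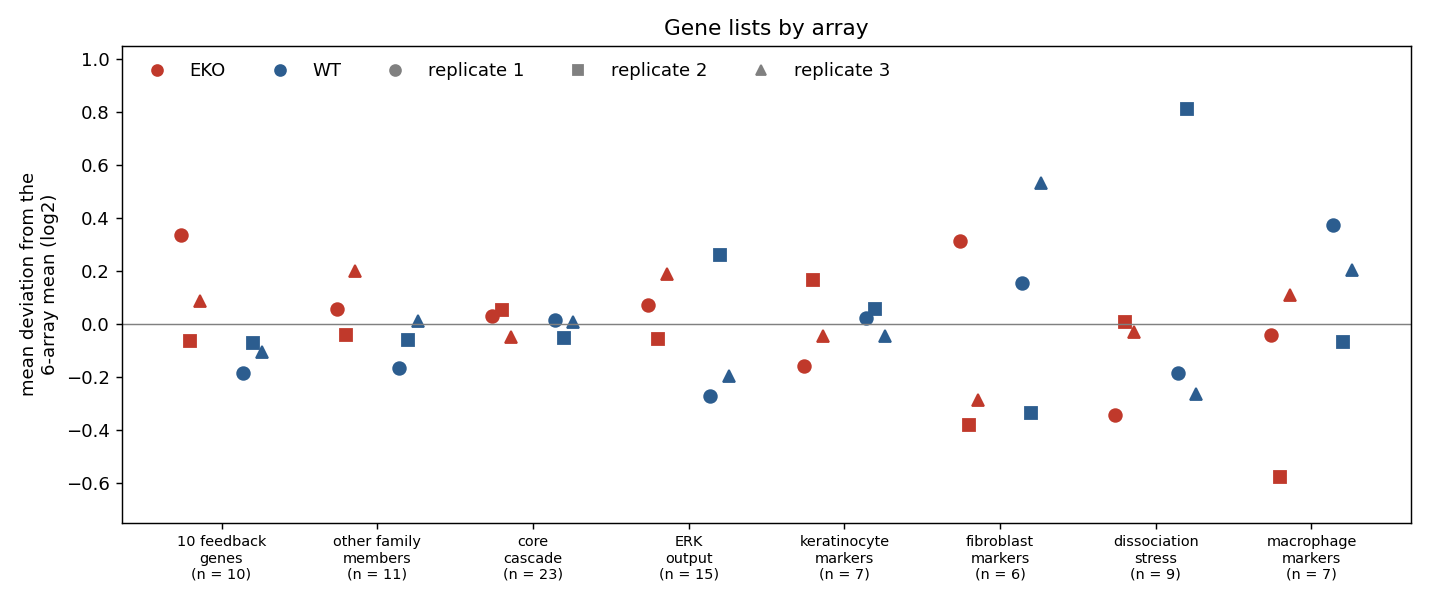
Mean deviation of each gene list from its 6-array mean (vertical axis, log2) in the 3 EKO (red) and 3 WT (blue) arrays, with marker shapes for replicates 1 to 3 and n for the genes measured. EKO replicate 1 is highest for the 10 feedback genes, EKO replicate 3 for other family members and WT replicate 3 for fibroblast markers. WT replicate 2 is highest for ERK output and for dissociation stress. Both of these lists hold Fos and Egr1, which read 12.13 and 12.03 in WT replicate 2, their highest array, so the lists are not separate observations.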

How the data were processed

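Expression was measured on 6 Affymetrix 3' arrays, 3 EKO and 3 WT, each with biotin-labelled cRNA from cells of 1 mouse, per the labels' protocols. The deposited log2 values came from RMA, with Partek 6.6 also named, per the submitters' processing notes. This method corrects background, equalises quantiles and summarises probes, which narrows differences between dim signals. The values were used as deposited, with no filter. No source names scan batches, so none was tested. Of 45101 probe sets, 34945 had 1 gene symbol in the platform annotation, and each of 18193 genes was read from its probe set with the highest mean.

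The genotypes were compared with limma (version 3.58.1, R 4.3.3; lmFit and eBayes, two-sided). P-values were adjusted by Benjamini-Hochberg over all 18193 genes, with a threshold of 0.05, or, for single probe sets, over all 34945. Differences are EKO minus WT on the log2 scale, with 95% intervals from the same fit. The procedure was tested on simulated data. The 10 genes and the 12 other gene lists were chosen with earlier results of these data known, so no test was made over a list. All values of the 10 genes are given, and at most 4 genes of each other list by smallest unadjusted p, apart from defining markers. Correlations over arrays have exact permutation p-values. Alternatives were a replicate block, only the upper 50% of means, repeated quantile normalization, centred medians, weights per array, robust variances with an intensity trend, a mean over probe sets, each other probe set and each array left out in turn.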

Additional observations from a re-analysis of the deposited data

How the results depend on the processing

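None of the 10 genes passed the threshold under any of 146 alternatives (smallest limma adjusted p = 0.26, for Spry1 without EKO replicate 2). The filter to the upper 50% of means left 8 of the 10 to test. In 134 of the alternatives the direction also stayed as reported, and in 12 it turned. With 1 array left out, the differences ran from -0.10 to 0.25 for Dusp4, from -0.053 to 0.020 for Spry4 and from -0.041 to 0.20 for Spred1. Spry4 was 0.14 by the mean over its probe sets, 0.62 on 1445669_at and 0.049 on 1422021_at. The direction also turned on 1423162_s_at (-0.057) and 1428777_at (-0.035) for Spred1, 1423001_at for Spred2 (-0.14) and 1420998_at for Etv5 (-0.048). The cause was not tested.

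The median difference of the 10 genes, 0.21, ran from 0.15 to 0.32 with 1 array left out, and was 0.14 by the mean over probe sets. Over all genes 1 passed, and from 1 to 42 did with 1 array left out: 42 without EKO replicate 2, 2 without WT replicate 2 and 1 without each other array. With the replicate number as a block the count was 1 and the median difference 0.21. Same-numbered arrays did not deviate together (r from -0.34 to -0.07), so the numbers were not taken as pairs. With 3 arrays a group and its wide spread, the difference of Dusp6 had an interval of -0.12 to 1.28, which includes 0.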

Other observations

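Lists of other cells gave these values, with 0 genes past the test in any of them. T cell markers had 1 of 4 measured genes higher by its EKO mean (median difference -0.14), neutrophil markers 2 of 4 (0.02) and endothelial markers 3 of 6 (0.03), with the VEGF receptor gene Kdr at 0.42 and Tek at -0.35. Skeletal muscle markers had 0 of 6 higher (median -1.20), and their mean level ran from 6.07 to 7.25 in EKO and from 5.93 to 9.48 in WT tumours. Hair shaft keratin genes had 6 of 6 higher (median 0.94), with mean levels, as deviations from the 6-array mean, from 0.07 to 0.92 in EKO and from -1.46 to 1.51 in WT tumours. For both tissues the WT arrays spread more widely than the EKO arrays and overlapped them. Keratinocyte markers had 4 of 7 higher (median 0.0026). Among macrophage markers, Mrc1, a mannose receptor, averaged 7.85 ± 0.267 in EKO and 8.88 ± 0.446 in WT tumours (difference -1.04, limma adjusted p = 0.576). Among fibroblast markers, Dcn, which encodes decorin, differed by -0.90.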
